A study of Mus musculus with 12 samples.

Results

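The IL-25+ programme common to gallbladder and small intestine is described here: the genes whose RNA differed between IL-25+ and IL-25- epithelial cells in the same way in both organs. It was taken from 12 of 12 sorted mouse libraries, 3 in each of 4 groups, as the mean of the gallbladder and the small intestine difference for every gene tested. The groups are IL-25+ and IL-25- epithelium of the gallbladder (GB-pos and GB-neg), and IL-25+ and IL-25- epithelium of the proximal small intestine (SI-pos and SI-neg). All 4 come from Flare25 reporter mice, whose Il25-expressing cells glow with RFP, and all were gated as live, single and EpCAM+ before the reporter gate split them. The labels describe the mice as at homeostasis, yet for the gallbladder they add HDM AF647 treatment, dated 1 day ahead of tissue collection, and give no such entry for the small intestine. Within an organ both gates carry the same entry, and where the 2 organs are set against each other it cannot be told apart from the organ. Age, sex and the number of animals behind a library are not given in the sources used here, so p-values measure the spread between these libraries, which may be technical.

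In gut and biliary epithelium, IL-25 is made mainly by tuft cells, rare chemosensory cells with a dense apical tuft of microvilli. They sense luminal compounds through G proteins, phospholipase C, calcium release and the sodium channel TRPM5, a cascade shared with taste cells. They answer with IL-25, leukotrienes, prostaglandins and acetylcholine, which act on immune cells, nerves and neighbouring epithelium. The transcription factor POU2F3 is required for them to form. The IL-25- gate holds the rest of the epithelium: cholangiocytes in the gallbladder, and enterocytes, goblet, Paneth, enteroendocrine and stem cells in the intestine.

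Read totals ran from 23703449 to 64736650 counts a library. Mitochondrially encoded genes took 7.13 to 17.2% of counts in IL-25+ libraries, against 11.2 to 34.9% in IL-25- libraries. With these genes removed before scaling, 1287 of the 1320 genes described below as changed alike met that rule again. A list of 11 tuft genes summed to 22580 to 37580 CPM (counts divided by the TMM-scaled library size) in IL-25+ libraries, against 28.5 to 251.8 CPM in IL-25- libraries. GB-neg 1 carried intestinal RNA: the enterocyte gene Apoa1 had 122, 2.01 and 1.59 CPM in GB-neg 1 to 3. SI-neg 3 carried a trace of gallbladder RNA: the gallbladder factor Sox17 had 0.148, 0.233 and 1.6 CPM in SI-neg 1 to 3. Counts that rest on these 2 libraries are given below with and without them.

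Across 16636 genes, 3073 (18.5%) were higher and 3588 (21.6%) lower in IL-25+ cells when the 2 organs were averaged, 40% together (edgeR quasi-likelihood test, adjusted p under 0.05). In the gallbladder alone 4456 genes (26.8%) were called, in the small intestine alone 4529 (27.2%), and 2152 (12.9%) were called in both organs in the same direction as in the average, 1176 (7.07%) higher and 976 (5.87%) lower. That is 48.3% of the gallbladder calls and 47.5% of the small intestine calls. A gene is said to have changed alike when, in addition, its 2 log2 fold changes differed by less than 1 (2-fold) and the tissue difference was not called. By this rule 1320 genes (7.93%) changed alike, 708 (4.26%) upward and 612 (3.68%) downward. Without GB-neg 1 and SI-neg 3 the upward count fell to 493 and the downward count to 396, and without SI-pos 3 to 560 and 386. The averaged calls without GB-neg 1 and SI-neg 3 were 2656 higher and 2491 lower. Over all genes tested, 1536 (9.23%) had a called tissue difference. Most calls of the averaged comparison were not called in both organs in the same direction: 3404 were called in only 1 organ, 1073 in neither, and 32 in opposite directions.

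**Figure D1:**
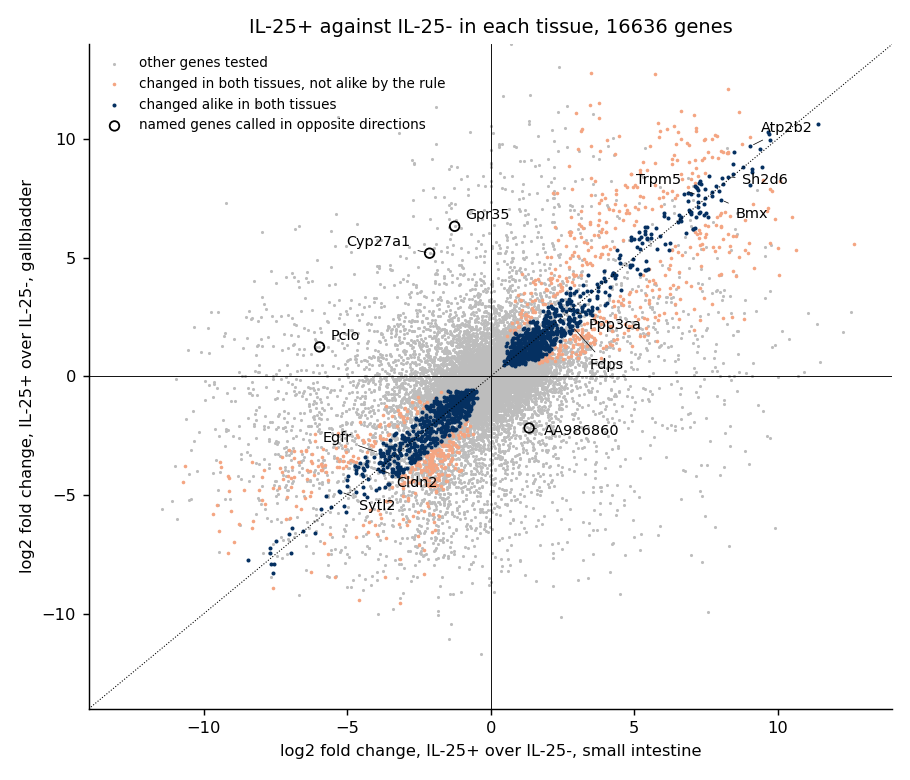
Each point is a gene, placed by its log2 fold change of IL-25+ over IL-25- in small intestine (x axis) and gallbladder (y axis); the dotted line marks equal change. The 1320 genes changed alike (dark blue) lie along the line by construction, and 4 named genes (open circles) were called in opposite directions.

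The genes that changed alike upward took a larger part of the RNA in IL-25+ cells. They held 15.1 to 17.6% of all counts in each IL-25+ library, against 3.51 to 4.44% in each IL-25- library. The genes that changed alike downward held 2.05 to 3.52% in IL-25+ libraries, against 5.61 to 11.6% in IL-25- libraries. Neither pair of ranges overlaps, and both follow from how the genes were chosen. Upward changes had a median log2 fold change of 1.64, with 87 genes over 5, and downward changes had a median of -1.78, with 19 genes beyond -5. The median over all genes tested was -0.12.

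Il25 itself, on which the gate was built, was a low transcript. It had 6.39, 12 and 6.92 CPM in GB-pos, against 0.674, 0.0295 and 0 CPM in GB-neg, and 6.38, 18.2 and 14.6 CPM in SI-pos, against 0, 0.0334 and 0.0508 CPM in SI-neg. The libraries do not overlap in either organ, but the 0.674 CPM in GB-neg 1, the library with intestinal RNA, was far above the other IL-25- libraries. GB-neg 1 also had the highest sum of the 11 tuft genes in GB-neg, 150.8 CPM against 28.5 and 41.1 CPM. The source of the Il25 reads in GB-neg 1 was not tested. The log2 fold change of Il25 was 6.85 ± 0.96 (adjusted p = 9.67e-05), with 5.04 ± 1.20 in gallbladder and 8.66 ± 1.49 in small intestine. Without GB-neg 1 the averaged value was 8.70. In small intestine, IL-25+ libraries held 982 counts against 3 in IL-25- libraries, a ratio of 443 (95% interval 151 to 2154, counting error only).

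The common increases given first are among the 12 largest for genes with at least 10 CPM in IL-25+ cells of each organ and libraries that do not overlap. Atp2b2, a plasma membrane calcium pump (chromosome 6, 113743831 to 114042613 of GRCm38), had 121, 143 and 96.3 CPM in GB-pos, against 0.182, 0.0886 and 0.13 CPM in GB-neg, and 189, 318 and 278 CPM in SI-pos, against 0.297, 0.367 and 0.787 CPM in SI-neg. Every IL-25+ library was far above every IL-25- library of both organs, and the log2 fold change was 9.37 ± 0.32 (adjusted p = 5.6e-10), with 9.69 ± 0.46 in gallbladder and 9.05 ± 0.44 in small intestine. Chat, the enzyme that makes acetylcholine (chromosome 14, 32408203 to 32465989), had 245, 245 and 249 CPM in GB-pos, against 1.23, 0.118 and 0.065 CPM in GB-neg, and 351, 391 and 414 CPM in SI-pos, against 0.623, 0.834 and 0.203 CPM in SI-neg. The averaged log2 fold change of Chat was 9.15 ± 0.66 (adjusted p = 1.95e-06). Gfi1b, a zinc finger repressor known from erythroid and platelet precursors, had 404, 294 and 291 CPM in GB-pos, against 1.57, 0.177 and 0.0325 CPM in GB-neg, and 277, 347 and 376 CPM in SI-pos, against 1.75, 0.934 and 0.229 CPM in SI-neg. It was again high in each of the 6 IL-25+ libraries, and its log2 fold change was 8.69 ± 0.79 (adjusted p = 1.51e-05).

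Cd180, a Toll-like receptor relative known from B cells, gave the largest fitted common increase among genes with at least 10 CPM in IL-25+ cells of each organ and no overlap of libraries. Its IL-25+ libraries held 3414 counts in gallbladder and 2046 in small intestine, against 3 in IL-25- libraries of each organ, ratios of 1569.9 (95% interval 537 to 7617) and 924 (316 to 4483). A part of the Cd180 exons overlaps Mast4, and the reads carry no strand. Gm2245, an antisense transcript whose exons overlap those of Fyb, a T cell and platelet adaptor, was higher in both organs. Its ratios were 1337 (95% interval 370 to 11052) in gallbladder and 1042 (288 to 8613) in small intestine. The overlap with Fyb covers 9.45% of its exon length, and reads there cannot be told apart from those of Fyb. The part of its counts that lies there was not tested. Itga11, a collagen-binding integrin chain, rose by 8.49 ± 0.59 on the log2 scale, Gm4952 by 8.56 ± 0.70, and Plek, a protein kinase C substrate of platelets, by 7.95 ± 0.74.

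Kinases and adaptors best known from white blood cells were higher in most cases. Of 29 tested kinases, phosphatases and adaptors of blood-cell type, 21 were higher and 1 lower, and 7 changed alike, all upward, with a median log2 fold change of 5.96 over the list. Sh2d6, an SH2 domain adaptor, was also among the most abundant: it had 7282, 5991 and 6345 CPM in GB-pos, against 46.7, 6.06 and 4.84 CPM in GB-neg, and 16858, 21234 and 20816 CPM in SI-pos, against 87.6, 76.7 and 26.8 CPM in SI-neg. Its IL-25+ level was higher in each small intestine library than in any gallbladder library, while the log2 fold changes were 8.41 ± 1.03 in gallbladder and 8.27 ± 1.03 in small intestine. Bmx, a Tec-family kinase, rose by 7.73 ± 0.29 (adjusted p = 1.5e-09), and Vav1, a guanine nucleotide exchange factor of lymphocytes, by 7.73 ± 0.34 (adjusted p = 3.69e-09). The adaptor Sh2d7 rose by 7.49 ± 1.14, the lipid kinase Pik3cg by 7.56 ± 0.44 and the Src-family kinase Lyn by 2.61 ± 0.17. Among 22 immune-type surface receptors, 9 were higher and 8 lower, beside 18.5% and 21.6% of all genes tested. Cd300lf, an inhibitory receptor for ceramide and phosphatidylserine, was at 7.80 ± 0.98 in gallbladder and 7.96 ± 0.99 in small intestine. Cd47, the signal that restrains phagocytes, rose by 1.67 ± 0.18, and the hyaluronan receptor Cd44 fell, by 2.41 ± 0.29 (adjusted p = 3.12e-05).

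Markers of white blood cells were measured beside these genes. Of 9 T cell and intraepithelial lymphocyte markers in the table, the sum was at most 0.0807 CPM in GB-pos and 57 CPM in SI-pos libraries, against at most 1.02 CPM in GB-neg and 64.9 CPM in SI-neg libraries, and the lowest adjusted p among its 7 tested members was 0.207 (edgeR; 0 members at an unadjusted p under 0.05). Of 5 B cell and plasma cell markers, 4 were at 0 counts in GB-pos and in GB-neg, and the sum ran from 1.17 to 76.6 CPM in SI-pos, against 0 to 18.5 CPM in SI-neg libraries. The 7 myeloid markers summed to 3.19 to 24.5 CPM in GB-pos, against 20.9 to 44.9 CPM in GB-neg, and to 8.46 to 17.4 CPM in SI-pos, against 4.6 to 13.2 CPM in SI-neg libraries; of 5 tested, 1 was higher and 2 lower. Of 6 mast cell and basophil genes, the receptor Kit was at 563 to 765 CPM in IL-25+ libraries, against 8.02 to 43.2 CPM in IL-25- libraries, and the other 5 (Cpa3, Mcpt1, Mcpt2, Fcer1a and Ms4a2) were at 0 counts in every IL-25+ library.

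**Figure D2:**
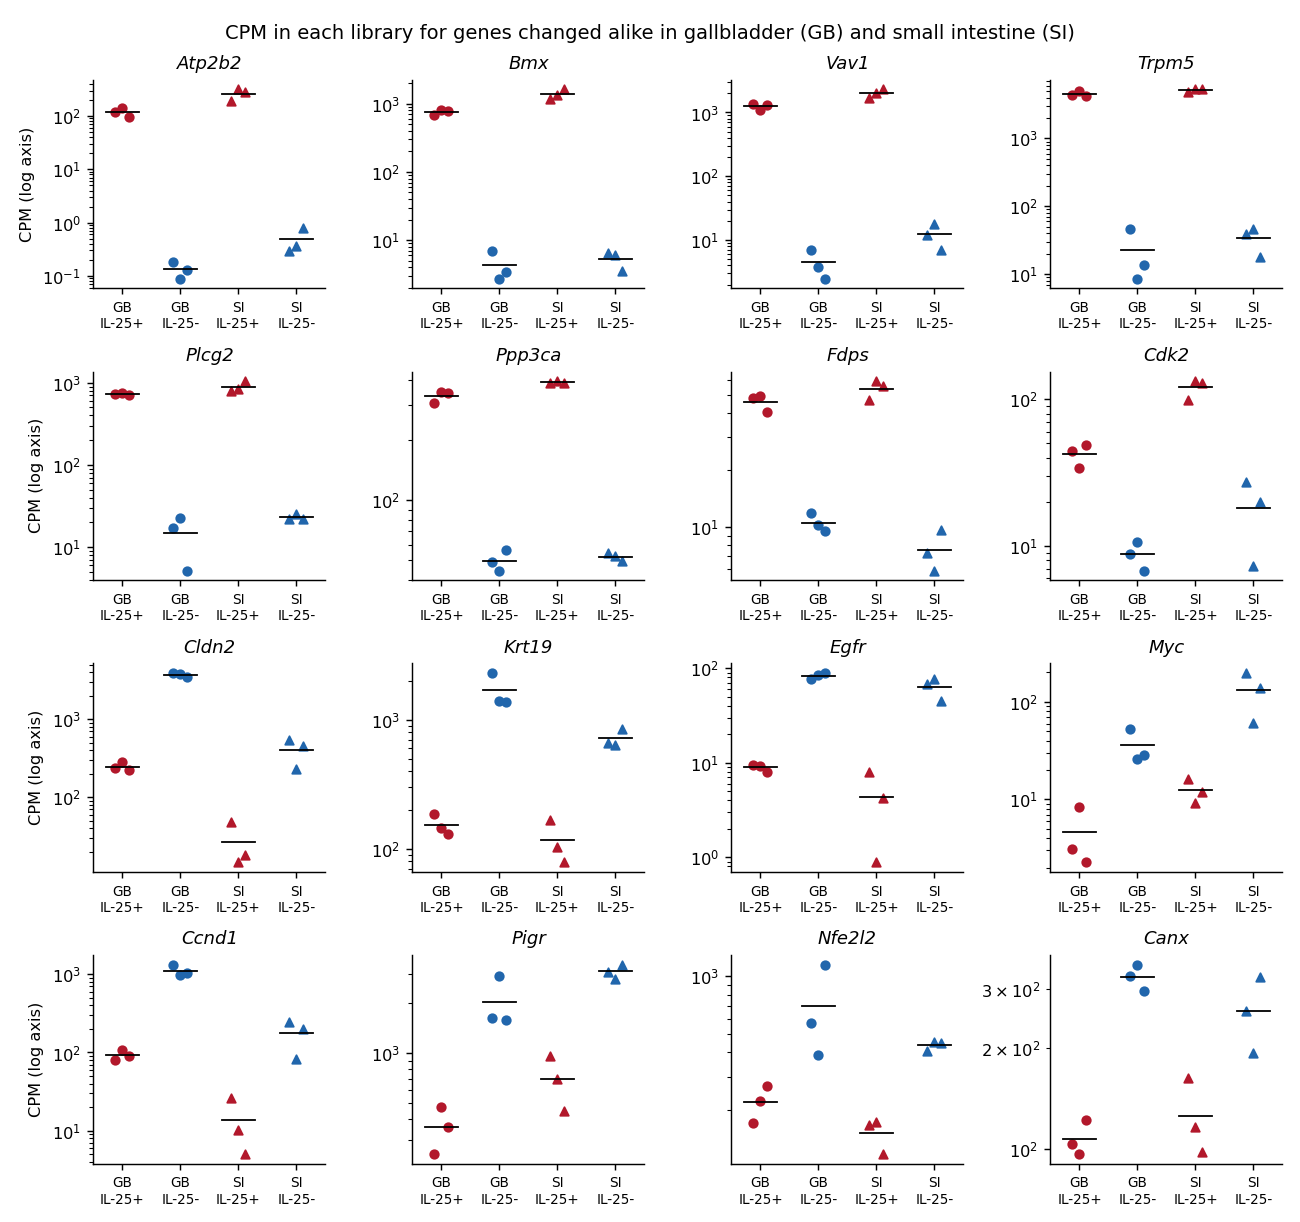
CPM on a log axis for 16 genes changed alike, 1 panel a gene, with points for the 3 libraries of a group and a line at their mean; circles are gallbladder, triangles small intestine, red IL-25+ and blue IL-25-. In each panel the IL-25+ points lie wholly above (Atp2b2 to Cdk2) or wholly below (Cldn2 to Canx) the IL-25- points of the same organ.

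Genes of the taste-type cascade were mostly higher. Of 15 tested members, 10 were higher and 3 lower, and 6 changed alike. Trpm5, the cation channel that depolarises taste and tuft cells, had 4413, 5027 and 4234 CPM in GB-pos, against 46.6, 8.6 and 13.8 CPM in GB-neg, and 4758, 5311 and 5287 CPM in SI-pos, against 39, 46 and 17.9 CPM in SI-neg. The 2 organs agreed to within 0.406 on the log2 scale, around an average of 7.42 ± 0.48 (adjusted p = 3.58e-07). A small part of the Trpm5 exons overlaps Tssc4. Upstream of the channel, Plcb2, the phospholipase that cleaves phosphatidylinositol bisphosphate in taste cells, rose by 6.60 ± 0.78, and Plcg2, the isoform used by B cells, rose by 5.44 ± 0.31 (adjusted p = 3.9e-08). The G protein subunit Gnai2 rose by 2.80 ± 0.16 (adjusted p = 3.9e-08). Atp2a3, which pumps calcium back into the endoplasmic reticulum, rose by 5.80 ± 0.33 (adjusted p = 3.9e-08). Trpm4, the closest relative of Trpm5 and likewise a calcium-activated cation channel, went the other way: it had 19.7, 8.39 and 18.6 CPM in GB-pos, against 41.6, 52.9 and 22.4 CPM in GB-neg, and 15.7, 13.9 and 16.2 CPM in SI-pos, against 66.7, 95.7 and 46.6 CPM in SI-neg. Its log2 fold change was -1.76 ± 0.28 (adjusted p = 0.000285), with -1.32 ± 0.39 in gallbladder and -2.19 ± 0.40 in small intestine.

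Genes with the narrowest 95% intervals of the tissue difference, under the same limits of level and overlap, included a calcium-dependent phosphatase. Ppp3ca, the catalytic subunit of calcineurin, had 306, 349.6 and 346 CPM in GB-pos, against 49.2, 44.5 and 56.2 CPM in GB-neg, and 388, 396 and 386 CPM in SI-pos, against 54.7, 52.8 and 49.5 CPM in SI-neg. The 2 organs differed by -0.16 on the log2 scale, with a 95% interval from -0.61 to 0.30. The same rule named Strbp, an RNA-binding protein first known from spermatids, at 2.18 ± 0.15 in gallbladder and 1.58 ± 0.15 in small intestine, Syne2, a nuclear envelope protein, at 1.65 ± 0.15 in gallbladder and 1.87 ± 0.15 in small intestine, and Tcf25 at 0.43 ± 0.15 in gallbladder and 0.86 ± 0.15 in small intestine. On the downward side it named Dlst, a subunit of the 2-oxoglutarate dehydrogenase complex, at -1.04 ± 0.16 in gallbladder and -0.92 ± 0.16 in small intestine, Rrbp1, a ribosome receptor of the endoplasmic reticulum, at -0.90 ± 0.16 in gallbladder and -0.48 ± 0.16 in small intestine, and 2610507B11Rik at -1.23 ± 0.15 in gallbladder and -0.69 ± 0.15 in small intestine. For 290 of the 1320 genes, 187 higher and 103 lower, the 95% interval of the tissue difference lay wholly between -1 and 1. For the other genes the interval reached past a 2-fold difference, so likeness of that degree is not shown.

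Some enzymes for lipid mediators and acetylcholine were among the genes higher in both organs. Beside the lists of this paragraph, 18.5% of all genes tested were higher and 21.6% lower. Of 15 eicosanoid genes, 8 were higher and 4 lower, and 3 changed alike: Alox5, the 5-lipoxygenase that starts leukotriene synthesis, by 7.55 ± 0.64, Ltc4s, which makes leukotriene C4, by 6.01 ± 0.67, and Mgst3, a membrane glutathione transferase, by 2.17 ± 0.20 (adjusted p = 2.05e-06). The acetylcholine list as a whole was not higher: of 11 genes, 3 were higher and 4 lower, with a median log2 fold change of -0.71. In both organs, 3 were higher and 2 lower. Besides Chat, Chdh, a choline dehydrogenase, changed alike, at 2.75 ± 0.17 in gallbladder and 2.62 ± 0.17 in small intestine. Of 14 tuft transcription factors, 12 were higher and 1 lower. Only Gfi1b and Sox9, a factor of progenitor and tuft cells that rose by 3.10 ± 0.25, met the rule for alike change; Pou2f3 rose in both organs, but its 2 log2 fold changes lay more than 1 apart. Of 13 genes for type 2 cytokines and their receptors, 7 were higher and 1 lower, and Il10rb, a receptor chain shared by interleukin 10 and interferon lambda, was the member changed alike, with 2.35 ± 0.22 in gallbladder and 1.48 ± 0.22 in small intestine.

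Cytoskeleton and vesicle genes were split, with members changed alike in both directions. Of 25 tested microvillus and cytoskeleton genes, 13 were higher and 7 lower. Tuba1a, an alpha-tubulin, rose by 6.41 ± 0.66, and Myo15b, an unconventional myosin, by 1.50 ± 0.17. Eps8, which caps and bundles actin in microvilli, fell by 1.94 ± 0.18 (adjusted p = 2.17e-06), Pls1, the plastin of the intestinal brush border, by 1.70 ± 0.28 (adjusted p = 0.000471), and Krt19, a keratin of simple epithelia, by 3.05 ± 0.22 (adjusted p = 2.49e-07). Krt19 had 186, 146 and 129.9 CPM in GB-pos, against 2318, 1403 and 1366 CPM in GB-neg, and 167, 103 and 78.2 CPM in SI-pos, against 665, 641 and 854 CPM in SI-neg. Of 24 vesicle release genes, 9 were higher and 7 lower. Beside this list and the cytoskeleton list, 18.5% of all genes tested were higher and 21.6% lower. Rab27a, a GTPase that docks secretory vesicles, rose by 2.05 ± 0.34 (adjusted p = 0.000474), and the SNARE proteins Vamp2 and Vamp8 by 1.88 ± 0.19 (adjusted p = 5.83e-06) and 1.22 ± 0.14 (adjusted p = 1.39e-05). The synaptotagmin-like proteins Sytl2 and Sytl4, which bind RAB27A, fell, by 5.04 ± 0.75 (adjusted p = 0.000357) and 2.92 ± 0.52 (adjusted p = 0.000618). Sytl2 was the largest common decrease named: it had 0.029, 1.93 and 0.323 CPM in GB-pos, against 25, 18.1 and 21 CPM in GB-neg, and 2.45, 1.97 and 3.08 CPM in SI-pos, against 60.5, 196 and 25.8 CPM in SI-neg. The GTPase was thus higher, and these 2 effectors lower, in IL-25+ than in IL-25- libraries of both organs.

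**Figure D3:**
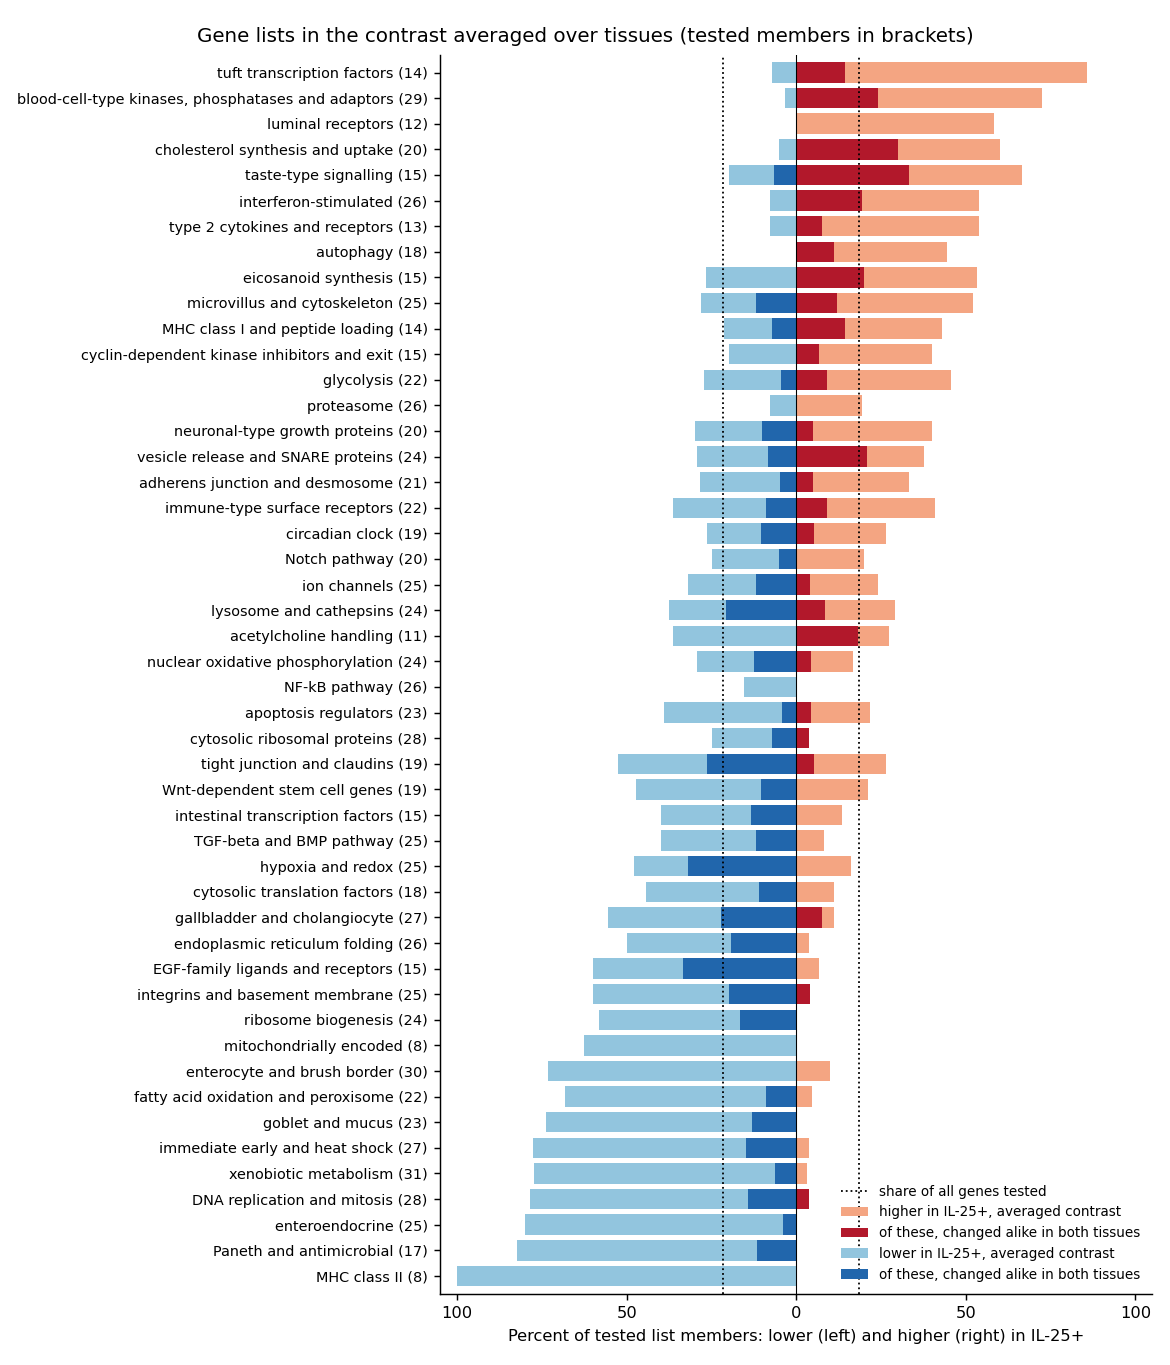
For each of 48 gene lists (tested members in brackets), bars give the percent of tested members higher (right) or lower (left) in IL-25+ cells in the averaged comparison, with the part changed alike in dark colour. Dotted lines mark the share of all genes tested, 18.5% higher and 21.6% lower.

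Genes of cholesterol synthesis and uptake were mostly higher. Of 20 tested, 12 were higher and 1 lower, with a median log2 fold change of 1.05, and 6 changed alike, all upward. Fdps, which makes farnesyl diphosphate, the branch point of the pathway, had 48.1, 49.3 and 40.4 CPM in GB-pos, against 11.8, 10.2 and 9.52 CPM in GB-neg, and 47.2, 59.1 and 55.3 CPM in SI-pos, against 7.27, 5.87 and 9.62 CPM in SI-neg. Each IL-25+ library was above each IL-25- library, and the log2 fold changes were 2.13 ± 0.26 in gallbladder and 2.83 ± 0.27 in small intestine. Fdft1, the first enzyme committed to sterols, rose by 1.96 ± 0.18 (adjusted p = 2.1e-06), though part of its exons overlaps the abundant gene Ctsb. Sqle, which epoxidises squalene, rose by 1.59 ± 0.18 (adjusted p = 1.54e-05), and Cyp51, the lanosterol demethylase, by 1.43 ± 0.16. Srebf2, the factor that drives the pathway when sterols are low, rose by 1.25 ± 0.16. Hmgcs1, which makes the HMG-CoA that enters the pathway, rose in both organs but more in the small intestine, with 1.34 ± 0.25 in gallbladder and 2.87 ± 0.27 in small intestine. It was the only one of 13 promoters in the list (RefSeq, GRCm38.p6, 250 bases before to 50 after the gene start) that held the sterol response element TCACNCCAC on either strand, against 1.18% of 11625 promoters of tested genes. That stretch, chr13:119690188-119690247 (plus strand), is shown because SREBF2 is known to act through such elements, with the match in capitals.
Hmgcs1: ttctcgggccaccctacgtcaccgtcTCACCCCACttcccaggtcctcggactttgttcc

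Energy genes moved in different directions. Of 22 glycolysis genes, 10 were higher and 6 lower. Ldha, which turns pyruvate into lactate, rose by 1.09 ± 0.16 and the phosphofructokinase Pfkp by 1.10 ± 0.15. Pdk4, a kinase that keeps pyruvate out of mitochondria, fell by 4.22 ± 0.59 (adjusted p = 0.00015): it had 1.6, 7.35 and 11.2 CPM in GB-pos, against 68.6, 74.8 and 141 CPM in GB-neg, and 1.06, 1.2 and 0.0811 CPM in SI-pos, against 12.9, 30.0 and 15.4 CPM in SI-neg. Of 22 fatty acid oxidation and peroxisome genes, 15 were lower and 1 higher, with the acyl-CoA synthetase Acsl5 at -1.60 ± 0.24 in gallbladder and -1.26 ± 0.24 in small intestine and the thiolase Acaa2 down by 1.51 ± 0.24. Of 24 nuclear oxidative phosphorylation genes, 4 were higher and 7 lower, beside 18.5% and 21.6% of all genes tested. Atp5c1 was at -0.78 ± 0.16 (adjusted p = 0.0016) and Uqcrc2 at -0.97 ± 0.15, while Ndufa1 was at 1.51 ± 0.17. Autophagy genes were higher in 8 of 18 cases and lower in none (edgeR quasi-likelihood test; also 0 at an unadjusted p under 0.05, by DESeq2 and by limma-voom), with Atg9a, the membrane-spanning autophagy protein, up by 1.43 ± 0.16 (adjusted p = 1.23e-05) and Map1lc3a, a core protein of the autophagosome membrane, by 2.29 ± 0.40.

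Interferon-stimulated genes were mostly higher. Of 26 tested, 14 were higher and 2 lower, with a median of 1.32, and 5 changed alike. Irf7, the factor that amplifies interferon production, had 135, 81.2 and 111 CPM in GB-pos, against 9.5, 23.2 and 10.1 CPM in GB-neg, and 288, 361 and 430.5 CPM in SI-pos, against 20.1, 56.7 and 16.9 CPM in SI-neg. IL-25+ and IL-25- libraries did not overlap in either organ, and the averaged log2 fold change was 3.23 ± 0.35 (adjusted p = 1.63e-05). Rsad2, an antiviral radical-SAM enzyme, rose by 4.31 ± 0.57, Stat2, the interferon signal transducer, by 1.85 ± 0.17 (adjusted p = 2.36e-06), Ddx58, the RNA sensor RIG-I, by 1.57 ± 0.21 (adjusted p = 5.68e-05), and Xaf1 by 1.52 ± 0.35. Of 14 class I antigen presentation genes, 6 were higher and 3 lower: the peptide-loading chaperone Tapbp rose by 1.28 ± 0.20 (adjusted p = 0.000218) and the nonclassical molecule H2-T23 by 1.56 ± 0.30, while Pdia3, a disulfide isomerase of the same loading complex, fell by 1.34 ± 0.17 (adjusted p = 4.23e-05). All 8 tested MHC class II genes were lower in the averaged comparison (6 without GB-neg 1 and SI-neg 3, and 5 without any 1 of the SI-pos libraries), 4 of them in both organs, and none met the rule for alike change.

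Cldn2, Aqp1 and Ctse fell alike in organs that held them at different levels. Bulk libraries cannot tell fewer cells of a type from less RNA per cell, so a lower level may be read only as a lower share of the RNA of the sorted fraction. Cldn2, which forms paracellular pores for sodium and water, had 238, 280.2 and 225 CPM in GB-pos, against 3935, 3763 and 3487 CPM in GB-neg, and 48.6, 14.7 and 18.1 CPM in SI-pos, against 536, 232 and 461 CPM in SI-neg. Each gate had a higher level in gallbladder than in small intestine, and the log2 fold changes were -3.91 ± 0.44 in gallbladder and -3.92 ± 0.44 in small intestine, a difference of 0.00 (95% interval -1.15 to 1.16). Aqp1, a water channel of bile duct epithelium, had 126, 193 and 90.5 CPM in GB-pos, against 1168, 1331 and 1376 CPM in GB-neg, and 23, 7.22 and 14.3 CPM in SI-pos, against 165, 135 and 162 CPM in SI-neg. Its levels were likewise higher in gallbladder, with log2 fold changes of -3.24 ± 0.37 in gallbladder and -3.37 ± 0.38 in small intestine and an interval of the difference from -0.92 to 1.18. Ctse, an aspartic protease, had 64.7, 161 and 119 CPM in GB-pos, against 1052, 1472 and 2225 CPM in GB-neg, and 0.302, 0.682 and 1.58 CPM in SI-pos, against 4.15, 43.2 and 19.9 CPM in SI-neg. Every gallbladder IL-25+ library held more Ctse than any small intestine IL-25- library, while the log2 fold changes were -3.78 ± 0.81 in gallbladder and -4.71 ± 0.89 in small intestine. The interval of the Ctse difference was wide, from -1.49 to 3.35, so likeness within 2-fold is not shown. SI-neg 3, at 19.9 CPM of Ctse, carried a trace of gallbladder RNA, and its part in that value was not tested.

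**Figure D4:**
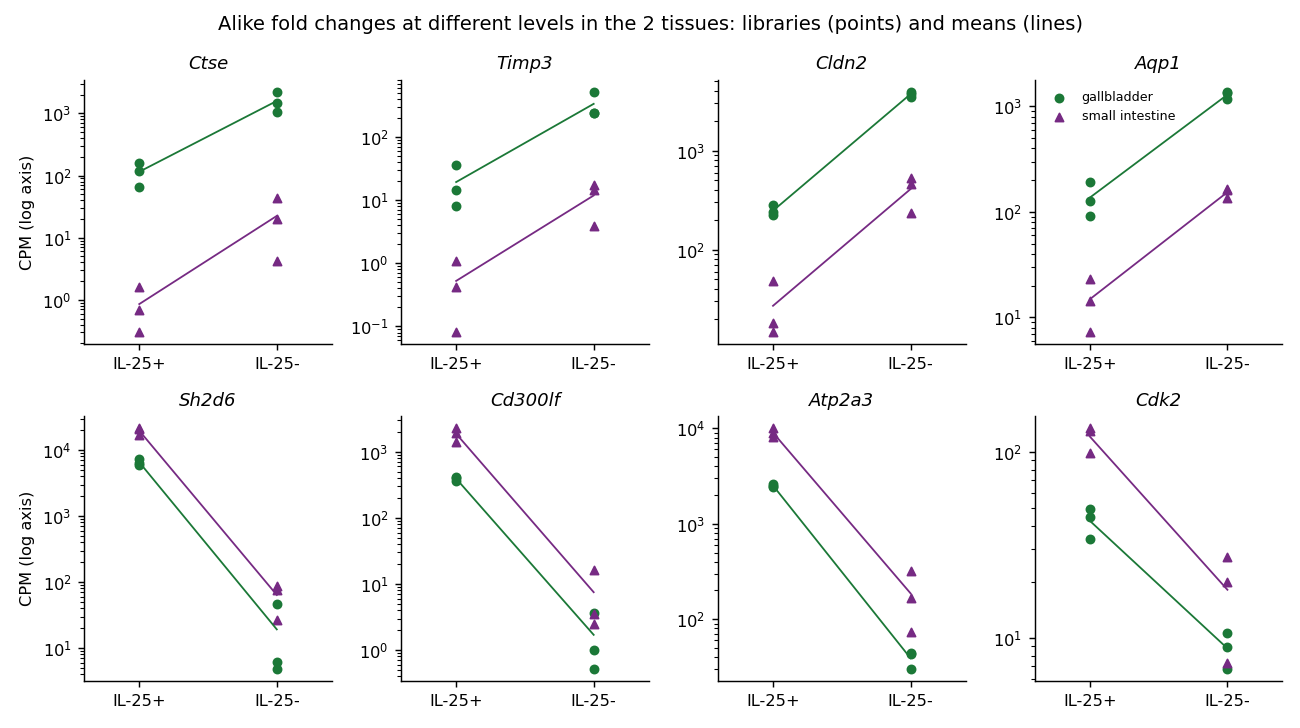
CPM on a log axis in IL-25+ (left) and IL-25- (right) libraries for 8 genes changed alike whose level differed between organs; points are libraries, and lines join the group means of gallbladder (green circles) and small intestine (purple triangles). The lines of a gene run nearly parallel at different heights.

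A difference in level beside an alike fold change was counted in both directions. The organ means differed by more than 4-fold for 139 genes (22.7%) changed alike downward, 48 genes (6.78%) changed alike upward and 19.6% of all genes tested. Other large common decreases were Nt5e, the ectoenzyme CD73 that makes adenosine, by 5.04 ± 0.61 (adjusted p = 2.7e-05), the sialyltransferase St8sia3 by 4.78 ± 0.74 (adjusted p = 0.000228), and Timp3, a metalloprotease inhibitor, by 4.30 ± 0.61 (adjusted p = 0.000294), whose exons overlap Syn3 in part. Nupr1, a stress-induced chromatin protein, fell by 4.68 ± 1.06 (adjusted p = 0.00434), the membrane mucin Muc3a fell by 4.16 ± 0.36 (adjusted p = 2.68e-06), the collagen-binding integrin chain Itga1 by 4.06 ± 0.61 (adjusted p = 0.000173), Spink4, a peptide of goblet cells, by 4.03 ± 0.43 (adjusted p = 1.23e-05), and Rasef by 3.93 ± 0.42 (adjusted p = 9.6e-06). Nupr1 met the rule for alike change in 4 of the 21 refitted alternatives, although its averaged call held in each. Other genes given here as changed alike also met the rule in fewer than 11 of the 21: Tcf25 in 3, Rplp0 and Ctsh in 6, Ncl in 8, Gpx1 and Tef in 9, and Atp6v0d1, Hnf4g, P2rx4 and Xaf1 in 10. Their averaged calls held in all 21.

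EGF-family ligands and receptors were mostly lower. Of 15 tested genes, 9 were lower and 1 higher, with a median log2 fold change of -2.08, and 5 changed alike, all downward. Egfr, the receptor, had 9.55, 9.28 and 7.94 CPM in GB-pos, against 76.7, 84.9 and 89.2 CPM in GB-neg, and 8, 0.883 and 4.26 CPM in SI-pos, against 68.6, 76.5 and 45.4 CPM in SI-neg. Even the highest IL-25+ library lay well below the lowest IL-25- library, and the log2 fold changes were -3.23 ± 0.54 in gallbladder and -3.85 ± 0.56 in small intestine. Erbb2, its co-receptor, fell by 1.78 ± 0.20. Of the ligands, Hbegf fell by 3.50 ± 0.29 (adjusted p = 9.9e-07), Areg by 4.04 ± 0.69 and Btc by 3.20 ± 0.60. Nrg4, a ligand of ERBB4, was the member that rose.

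Most replication and mitosis genes were lower. Of 28 replication and mitosis genes, 22 were lower and 1 higher, with a median of -1.89, and without GB-neg 1 and SI-neg 3 the lower count was 12. Ccnd1, the G1 cyclin induced by growth factors, had 80.6, 106 and 89.7 CPM in GB-pos, against 1327, 995 and 1031 CPM in GB-neg, and 26.2, 10.1 and 4.99 CPM in SI-pos, against 248, 83 and 197 CPM in SI-neg. It fell by 3.64 ± 0.40 (adjusted p = 2.96e-05), and part of its exons overlaps LTO1. The replicative helicase subunits Mcm2 and Mcm3 fell by 2.18 ± 0.32 and 3.32 ± 0.61, and Ube2c, a ubiquitin carrier of the anaphase-promoting complex, by 2.73 ± 0.36. Cdk2, the kinase partner of cyclins E and A, was higher: it had 44.6, 33.8 and 48.9 CPM in GB-pos, against 8.86, 10.6 and 6.79 CPM in GB-neg, and 98.7, 133 and 129 CPM in SI-pos, against 27.1, 7.28 and 19.8 CPM in SI-neg. The groups did not overlap in either organ, and Cdk2 rose by 2.51 ± 0.28 (adjusted p = 1.42e-05). Rb1, the retinoblastoma protein that Cdk2 phosphorylates, rose by 1.33 ± 0.16 (adjusted p = 2.01e-05), though it shares exon sequence with Lpar6 and Rcbtb2. In its list of 15 cell cycle exit genes, 6 were higher (3 without GB-pos 1, GB-pos 3, SI-pos 3 or SI-neg 1) and 3 lower.

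Of 23 replication and mitosis genes with a RefSeq promoter, 4 (17.4%) held the E2F element TTTCGCGC on either strand, against 0.559% of all 11625 promoters. The variant TTTGGCGC was held by 3 (13%), against 0.929%, and Mcm5 and Mcm6 held both forms. These shares describe the list and are no result about IL-25+ cells. Promoters of genes changed alike downward held the element in 0.431% and the variant in 1.51%, and those changed alike upward held each in 0.733%. E2F factors are known to drive replication and mitosis genes when retinoblastoma protein is phosphorylated. Stretches of GRCm38.p6 around matches in Mcm3, which changed alike, and in Mcm6 and Cdk1, which were lower in the average, are shown with the match in capitals. They lie at chr1:20820263-20820300 (minus strand), chr1:128359782-128359841 (minus strand) and chr10:69353010-69353069 (minus strand).
Mcm3: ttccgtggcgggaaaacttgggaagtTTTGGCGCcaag
Mcm6: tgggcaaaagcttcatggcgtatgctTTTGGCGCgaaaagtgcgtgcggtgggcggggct
Cdk1: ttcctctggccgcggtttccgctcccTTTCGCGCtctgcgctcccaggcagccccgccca
Mcm6 fell by 2.39 ± 0.30, with -1.67 ± 0.42 in gallbladder and -3.11 ± 0.44 in small intestine. Cdk1 fell by 3.76 ± 1.06 (adjusted p = 0.0126) in the average. This call ended without GB-neg 1 and SI-neg 3 (adjusted p = 0.075) and with the replicate number as a block nested in tissue (adjusted p = 0.0976). Over the alternatives the adjusted p of Cdk1 ran from 0.0003 to 0.0976, and its log2 fold change was -5.79 without GB-pos 3.

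Ribosome biogenesis genes were lower where they were called. Of 24 ribosome biogenesis genes, 14 were lower and none was higher (edgeR; also 0 at an unadjusted p under 0.05, by DESeq2 and by limma-voom), with a median of -1.04, and 4 changed alike. Myc, the factor that drives this set, had 3.14, 8.35 and 2.26 CPM in GB-pos, against 53.1, 26.3 and 28.3 CPM in GB-neg, and 16.2, 9.11 and 11.9 CPM in SI-pos, against 198, 60.6 and 138 CPM in SI-neg. It fell by 3.19 ± 0.39 (adjusted p = 3.58e-05). Npm1, a nucleolar chaperone, fell by 2.35 ± 0.22 (adjusted p = 3.25e-06), nucleolin (Ncl) by 1.02 ± 0.16 (adjusted p = 0.00022) and Polr1a, the large subunit of RNA polymerase I, by 1.20 ± 0.16 (adjusted p = 5.83e-05). The translation factors Eif3a and Eif4g1 fell by 1.05 ± 0.16 and 0.73 ± 0.14, within a list of 18 in which 8 were lower and 2 higher. Of 28 ribosomal proteins, 7 were lower (3 without GB-neg 1 and SI-neg 3) and 1 higher, a smaller called share than the 40% of all genes tested. Among them, Rpl4 fell by 1.10 ± 0.18 and Rplp0 by 0.96 ± 0.20. Rpl18 was the one that rose, at 2.12 ± 0.39 in gallbladder and 1.87 ± 0.38 in small intestine. It shares 9.23% of its exon length with Sphk2, and reads there may come from either gene.

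Genes of protein folding in the endoplasmic reticulum were mostly lower where they were called. Of 26 genes, 13 were lower and 1 higher, with a median of -0.54, and the 5 changed alike were Canx, P4hb, Pdia3, Pdia4 and Pdia6. Canx, the lectin chaperone calnexin, had 103, 96.4 and 122 CPM in GB-pos, against 328, 355 and 296 CPM in GB-neg, and 163, 116 and 97.9 CPM in SI-pos, against 258, 193 and 327 CPM in SI-neg. Its log2 fold changes were -1.61 ± 0.23 in gallbladder and -1.04 ± 0.23 in small intestine. The disulfide isomerases P4hb, Pdia4 and Pdia6 fell by 0.96 ± 0.12 (adjusted p = 4.45e-05), 1.50 ± 0.19 (adjusted p = 3.97e-05) and 0.82 ± 0.15. The endoplasmic reticulum stress element, known to bind ATF6 and XBP1, is CCAAT followed after 9 bases by CCACG. It was present on either strand in 7 of 20 promoters of the list (35%), against 0.146% of all 11625. That share describes the list and is no result about IL-25+ cells. Among genes changed alike, 0.431% of promoters held the element on the downward side and 0.183% on the upward side. Of the 7 holders, Canx and Pdia6 changed alike. The 5 of these 7 whose gene was lower are shown, from chr11:50325780-50325839 (minus strand) (Canx), chr12:17266470-17266529 (plus strand) (Pdia6), chr2:34772004-34772063 (plus strand) (Hspa5), chr14:118937806-118937865 (plus strand) (Dnajc3) and chr8:84847055-84847114 (minus strand) (Calr), with the match in capitals. In Calr the match is on the other strand.
Canx: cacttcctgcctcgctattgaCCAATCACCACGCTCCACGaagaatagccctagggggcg
Pdia6: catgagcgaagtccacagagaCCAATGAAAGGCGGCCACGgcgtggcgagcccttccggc
Hspa5: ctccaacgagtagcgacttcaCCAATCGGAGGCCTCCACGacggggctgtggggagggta
Dnajc3: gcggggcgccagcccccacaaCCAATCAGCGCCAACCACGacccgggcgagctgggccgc
Calr: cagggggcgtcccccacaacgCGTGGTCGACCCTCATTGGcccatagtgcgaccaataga
Not all of these genes changed alike. Hspa5, the chaperone BiP, was at -1.65 ± 0.28 in gallbladder and -0.23 ± 0.27 in small intestine, and Calr, calreticulin, at -1.20 ± 0.22 in gallbladder and -0.11 ± 0.21 in small intestine, and in both the tissue difference was called (adjusted p = 0.035 and 0.0378). Dnajc3, a co-chaperone of BiP, was at -1.08 ± 0.20 in gallbladder and -0.54 ± 0.19 in small intestine. The other 2 genes with the element, Hsp90b1 and Creld2, did not pass the test.

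Antioxidant genes were mostly lower where they were called. Of 25 hypoxia and redox genes, 12 were lower and 4 higher, with a median of -0.72, and 8 changed alike, all downward. Nfe2l2, the factor NRF2 that switches on antioxidant enzymes, had 172, 223 and 268 CPM in GB-pos, against 571, 386 and 1142 CPM in GB-neg, and 167, 174 and 118 CPM in SI-pos, against 409, 454 and 446 CPM in SI-neg. It fell by 1.59 ± 0.23 (adjusted p = 0.00014). Prdx1, a peroxiredoxin, had 45.7, 48.3 and 42.3 CPM in GB-pos, against 184, 175 and 298 CPM in GB-neg, and 48, 55.4 and 36.9 CPM in SI-pos, against 135, 127 and 154 CPM in SI-neg. Every IL-25+ library was lower than every IL-25- library, and Prdx1 fell by 1.92 ± 0.17 (adjusted p = 1.37e-06). Srxn1, which repairs oxidised peroxiredoxin, fell by 2.03 ± 0.30 (adjusted p = 0.00014), thioredoxin (Txn1) by 0.91 ± 0.13 (adjusted p = 0.000165), glutathione reductase (Gsr) by 0.94 ± 0.18 and the glutathione peroxidases Gpx1 and Gpx2 by 0.91 ± 0.19 and 1.74 ± 0.29. Egln3, an oxygen-sensing prolyl hydroxylase, fell by 1.19 ± 0.24. Hmox1, Gpx4 and Gclm went the other way, with higher averaged calls that held in all 21 refitted alternatives. Across these alternatives the log2 fold change ran from 1.75 to 2.36 for Hmox1, 1.00 to 1.38 for Gpx4 and 0.57 to 0.74 for Gclm. None of these genes met the rule for alike change. The antioxidant response element TGACNNNGC was present in 5 of 20 promoters of the list (25%), against 14.6% of all. It was in 15.3% of promoters of genes changed alike downward and 13.4% of those changed alike upward. The 5 holders were Nfe2l2, Sod1, Gclm, Prdx1 and Srxn1, of which Gclm was higher in the average. Stretches of Prdx1 and Srxn1 are shown. The 2 stretches, at chr4:116685440-116685499 (plus strand) and chr2:152105526-152105573 (plus strand), carry it on the other strand, and in Prdx1 it overlaps the AP-1 element TGAGTCA.
Prdx1: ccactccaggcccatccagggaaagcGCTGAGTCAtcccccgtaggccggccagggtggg
Srxn1: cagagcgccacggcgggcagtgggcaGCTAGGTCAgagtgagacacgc
Of 31 xenobiotic metabolism genes, 24 were lower and 1 higher, and the glutathione transferases Gsta3 and Gsta4 changed alike, by -4.09 ± 0.62 and -3.54 ± 0.44.

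Integrin and basement membrane genes were mostly lower, and junction genes were split. Of 19 tight junction genes, 10 were lower and 5 higher (3 higher without GB-neg 1 and SI-neg 3). Beside the lists of this paragraph, 18.5% of all genes tested were higher and 21.6% lower. Besides Cldn2, Ocln, the junction protein occludin, fell by 1.20 ± 0.15 (adjusted p = 3.28e-05), Cldn8 by 3.10 ± 0.59 and Cldn23 by 1.65 ± 0.25. The scaffold Tjp3 rose, by 0.69 ± 0.14 (adjusted p = 0.00159). Of 25 integrin and basement membrane genes, 15 were lower and 1 higher. The laminin chains Lama3 and Lamb1 fell by 2.87 ± 0.61 and 3.10 ± 0.47, the integrin chain Itga6 by 0.90 ± 0.17 and the tetraspanin Cd151 by 1.27 ± 0.19 (adjusted p = 0.000172). Itgb4, the partner of Itga6 in hemidesmosomes, rose by 0.97 ± 0.19 (adjusted p = 0.00118): it had 268, 204 and 138 CPM in GB-pos, against 128, 89.7 and 110.5 CPM in GB-neg, and 344, 322 and 299 CPM in SI-pos, against 129, 214 and 123 CPM in SI-neg. Of 21 adherens junction and desmosome genes, 7 were higher and 6 lower, with periplakin (Ppl) down by 2.73 ± 0.23 (adjusted p = 1.29e-06) and desmoplakin (Dsp) up by 0.99 ± 0.12. Epcam, on which all cells were sorted, rose by 1.32 ± 0.12 (adjusted p = 1.54e-06).

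Most immediate early and heat shock genes were lower. Of 27 immediate early and heat shock genes, 21 were lower and 1 higher, with a median of -1.09. Fos, the AP-1 subunit induced within minutes of stimulation, had 93.2, 157 and 140.0 CPM in GB-pos, against 1285, 969.6 and 1529.6 CPM in GB-neg, and 15.1, 26.5 and 27.4 CPM in SI-pos, against 121, 164 and 90.1 CPM in SI-neg. It fell by 2.86 ± 0.22 (adjusted p = 4.53e-07), Fosb by 2.78 ± 0.30, Atf3 by 3.34 ± 0.40 and Nr4a2 by 3.09 ± 0.59. These genes are also known to be induced when tissue is dispersed, and the part of that in the difference was not tested. Of 25 TGF-beta and BMP genes, 10 were lower and 2 higher, with the receptors Tgfbr2 and Bmpr1a down by 2.30 ± 0.33 (adjusted p = 0.000119) and 1.01 ± 0.14 (adjusted p = 7.61e-05) and the transducer Smad3 by 1.47 ± 0.30. Jag1, a Notch ligand, fell by 3.12 ± 0.47 (adjusted p = 0.000168), in a list of 20 with 5 lower (2 without GB-neg 1 and SI-neg 3, 3 without GB-neg 1 alone) and 4 higher. Of 19 clock genes, 5 were higher (3 without GB-pos 3, any GB-neg, SI-pos 2, SI-pos 3 or SI-neg 3) and 5 lower. Beside this list and that of Jag1, 18.5% of all genes tested were higher and 21.6% lower. Clock fell by 1.08 ± 0.14 (adjusted p = 3.82e-05), Nr1d1, the repressor REV-ERB alpha, by 1.96 ± 0.19 (adjusted p = 3.36e-06), and Tef, an output factor, rose by 0.97 ± 0.22. Nr1d1 shares exon sequence with Thra.

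Goblet, gallbladder and cholangiocyte genes were lower in most cases. Of 23 goblet and mucus genes, 17 were lower and none was higher (edgeR; also 0 at an unadjusted p under 0.05, by DESeq2 and by limma-voom), and Muc4, a membrane mucin, fell by 3.55 ± 0.35 (adjusted p = 1.02e-05). Pigr, which carries IgA across the epithelium, had 247, 472 and 359 CPM in GB-pos, against 1632, 2913 and 1594 CPM in GB-neg, and 961, 697 and 449.7 CPM in SI-pos, against 3114, 2813 and 3419 CPM in SI-neg. It fell by 2.33 ± 0.23 (adjusted p = 4.86e-06). Of 27 gallbladder and cholangiocyte genes, 15 were lower and 3 higher, and 6 changed alike downward: Aqp1, Krt19, Krt7, the bile acid receptor Nr1h4, the liver and biliary factor Onecut1 and the secreted protein Spp1. Nr1h4 fell by 3.05 ± 0.42 and Onecut1 by 2.71 ± 0.54. Slc4a2, an anion exchanger, rose by 1.33 ± 0.13 and shares exon sequence with Fastk. Among 15 intestinal transcription factors, 6 were lower and 2 higher, beside 21.6% and 18.5% of all genes tested. Hnf4g was down by 2.24 ± 0.35 (adjusted p = 0.000312) and Gata6 by 1.23 ± 0.19 (adjusted p = 0.000235). The hormone-processing enzyme Pcsk1 fell by 4.16 ± 0.78 (adjusted p = 0.00123), and by 7.42 without GB-pos 3.

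Lysosomal genes and ion channels held members of both signs. Of 24 lysosome and cathepsin genes, 7 were higher and 9 lower. The cathepsins Ctsz, Ctsl and Ctsh fell by 2.17 ± 0.31 (adjusted p = 0.000114), 1.78 ± 0.22 (adjusted p = 3.95e-05) and 1.48 ± 0.27, and the lysosomal membrane protein Lamp2 by 1.93 ± 0.18 (adjusted p = 2.68e-06). Psap, the precursor of sphingolipid activators, rose by 0.77 ± 0.15 (adjusted p = 0.00117), and Atp6v0d1, a subunit of the proton pump, by 1.00 ± 0.19 (adjusted p = 0.0011). Of 25 ion channels, 6 were higher and 8 lower, beside 18.5% and 21.6% of all genes tested. The chloride channels Ano1 and Clcn2 fell by 3.53 ± 0.48 and 2.25 ± 0.24 (adjusted p = 8.09e-06), the sodium channel Scn8a by 3.51 ± 0.42 (adjusted p = 2.35e-05), and P2rx4, a cation channel opened by ATP, rose by 1.24 ± 0.27 (adjusted p = 0.0028). Of the neuronal-type list of 20, 8 were higher and 6 lower, with the vesicle calcium sensor Syt1 up by 3.77 ± 0.34 and the guidance genes Sema3c and Plxna1 down by 2.07 ± 0.26 (adjusted p = 3.78e-05) and 1.43 ± 0.24 (adjusted p = 0.000416).

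A few genes called in the average moved in opposite directions in the 2 organs. Gpr35, a receptor for metabolites of tryptophan and other ligands, had 205, 172 and 164 CPM in GB-pos, against 3.07, 0.738 and 2.89 CPM in GB-neg, and 21.2, 14.5 and 20.8 CPM in SI-pos, against 52.4, 43.8 and 38.5 CPM in SI-neg. It was higher in gallbladder IL-25+ cells and lower in small intestine IL-25+ cells, at 6.32 ± 0.47 in gallbladder and -1.25 ± 0.38 in small intestine, so that its averaged value of 2.54 ± 0.28 (adjusted p = 1.35e-05) describes neither organ. Cyp27a1, a sterol hydroxylase of bile acid synthesis, had 76.3, 50.6 and 58.4 CPM in GB-pos, against 1.52, 2.42 and 1.14 CPM in GB-neg, and 3.7, 2.29 and 1.74 CPM in SI-pos, against 8.19, 11.3 and 14.3 CPM in SI-neg. Its log2 fold changes were 5.19 ± 0.45 in gallbladder and -2.13 ± 0.40 in small intestine. Pclo, a scaffold of presynaptic release sites, had 70.8, 83.4 and 91.2 CPM in GB-pos, against 40.2, 24.7 and 39 CPM in GB-neg, and 1.62, 0.642 and 1.14 CPM in SI-pos, against 54.3, 102 and 56.5 CPM in SI-neg. Its values were 1.24 ± 0.34 in gallbladder and -5.96 ± 0.42 in small intestine, and AA986860 was at -2.17 ± 0.22 in gallbladder and 1.34 ± 0.21 in small intestine. The averaged call of AA986860 held in 9 of 21 refitted alternatives. The tissue difference was called for all 4, with adjusted p from 1.04e-05 (Pclo) to 3.32e-05 (AA986860). In all, 191 genes were called in both organs in opposite directions, and 32 of them were called in the average.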

How the data were processed

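The 12 libraries hold sorted epithelial RNA. Per the series' design text, NuGen Ovation amplification of cDNA preceded Nextera XT tagging, a chemistry without strand information, and a HiSeq 4000 gave the reads. The deposited values are counts of reads for each gene, not normalized. Per the submitters' processing notes, tools were STAR 2.7.2b and DESeq2 1.26, with build GRCm38; the read counter and annotation are not given in the sources used here. Another 11 columns match no sample and were not used. Of 43432 genes, 42548 matched GENCODE M21, and the others held at most 0.119% of a library's counts.

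Counts were fitted with edgeR 4.0.16 in R 4.3.3: filterByExpr (minimum count 10) left 16636 genes, libraries were scaled by TMM, and a robust quasi-likelihood model with the 4 groups as factor was fitted to all 12 libraries. Contrasts were the mean of the organ differences, each organ, and the tissue difference (gallbladder minus small intestine), with two-sided tests and Benjamini-Hochberg adjustment over all genes at 0.05. SE is the size of a log2 fold change over the square root of F. Adjusted p-values in the text are of the averaged contrast unless named otherwise. Replicate libraries were checked to be distinct. A count of 0 allows up to 3 counts, 0.0463 to 0.127 CPM by library; ratios over 1 to 3 counts carry exact binomial 95% intervals. Intervals cover counting error only.

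The members, the 48 gene lists and 12 marker lists were chosen with earlier results of these data known. Genes are named by rule: Il25; the 12 largest increases and decreases changed alike with at least 10 CPM and libraries that do not overlap; 4 members per list by adjusted p and members called against their list; the 4 narrowest tissue differences in each direction; 4 genes called in opposite directions; and the 6 highest per kilobase. Il25 and opposite genes aside, the text keeps those changed alike, and adds other list members and genes with a printed promoter, chosen after their values were seen; a few genes the rule names are not reported here. Promoters are from RefSeq (GRCm38.p6), with 1 for 11625 of 16630 tested genes; motifs were searched on both strands. Alternatives were RLE scaling, DESeq2 1.42.0, limma-voom (limma 3.58.1), no filter and a filter of 5 CPM in 3 libraries, a replicate block, mitochondrial genes removed, leaving out libraries, a limit of 0.5 on the tissue difference, an additive model and glmTreat. The procedure was tested on simulated counts. Python 3.11.15 handled tables with pandas 2.3.3 and numpy 2.4.6, intervals with scipy 1.17.1 and figures with matplotlib 3.10.9.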

Additional observations from a re-analysis of the deposited data

Results flagged for a closer look

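A called difference between the organs' IL-25+ effects, by the interaction test of the quasi-likelihood fit, marked 7 of the genes whose values in each organ are given above. It is given as gallbladder minus small intestine on the log2 scale. For Gpr35 it was 7.58 ± 0.59 (adjusted p = 1.49e-05), for Cyp27a1 7.31 ± 0.60 (adjusted p = 1.96e-05) and for Pclo 7.20 ± 0.53 (adjusted p = 1.04e-05). The receptor Gpr35 and the sterol hydroxylase Cyp27a1 were higher in IL-25+ cells of the gallbladder and lower in those of the small intestine, and so was Pclo. The opposite held for AA986860, at -3.52 ± 0.30 (adjusted p = 3.32e-05). Among pathway genes described above, the sterol enzyme Hmgcs1 rose more in small intestine, at -1.53 ± 0.35 (adjusted p = 0.0158). The chaperones Hspa5, at -1.42 ± 0.38 (adjusted p = 0.035), and Calr, at -1.09 ± 0.30 (adjusted p = 0.0378), were called lower in gallbladder alone.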

How the results depend on the processing

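Depth limits the genes near 0 counts, whose folds are given as ratios with counting intervals. In each of 21 refitted alternatives, at most 1 of the genes changed alike that had an adjusted p lost its averaged call, and none changed sign; how many met the rule for alike change varied more, from 889 to 1640, with 788 to 1287 of the original 1320 among them. Without GB-neg 1 and SI-neg 3, 493 genes changed alike upward and 396 downward. With a limit of 0.5 on the tissue difference, 461 changed alike upward and 388 downward, and with the 95% interval inside -1 to 1, 187 and 103. Against a fold of 2 (glmTreat), 1342 genes were higher and 1550 lower on average. DESeq2 called 2364 tissue differences, and limma-voom called 6832 genes in small intestine. Leaving out 1 library at a time gave 386 to 584 genes changed alike downward and 559 to 653 upward, the lowest of the first without SI-pos 3. The upward share of the genes changed alike ran from 46.6 to 59.2%. The labels do not say what replicate numbers mark, and they were not taken as pairs: deviations of same-numbered libraries correlated at -0.065 to 0.166, not all over 0.1. In gallbladder each library correlated best with its own number in the other gate, in small intestine not. With the number as a replicate block, 652 genes changed alike upward and 563 downward, and nested in tissue 628 and 553. These 2 blocks gave 7 and 6 Paneth genes lower, and 11 and 9 enterocyte genes; the adjusted p of Cdk1 was 0.0231 and 0.0976. Single libraries moved the tissue differences called to between 1050 and 1566, and the small intestine calls to between 3040 and 4774. Of 2016 refitted list counts, 1859 stayed within 1.5 times. The cause of these shifts was not tested.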

Other observations

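Several gene groups had members called in the average, of which few or none changed alike; 40% of all genes tested were called. Of 12 luminal receptors, through which tuft cells sense succinate and other compounds, 7 were higher and none was lower (edgeR; 1 at an unadjusted p under 0.05, 0 by DESeq2, 1 by limma-voom), 3 of the 7 in both organs, and none met the rule for alike change. Of 25 enteroendocrine genes, 20 were lower (7 without GB-neg 1 and SI-neg 3, and 7 without GB-neg 1 alone), with 1 lower in both organs. Of 30 enterocyte genes, 22 were lower and 3 higher, with 2 lower in both organs; the lower count was 12 without those 2 libraries and as low as 11 without a single one (SI-pos 3), and it was 11 by limma-voom and 12 with no filter on low counts. Of 17 Paneth and antimicrobial genes, 14 were lower (7 without those libraries or without GB-neg 1 alone, 9 without SI-pos 1 or SI-pos 2, and 4 by limma-voom). Called shares were below that background for the ribosomal proteins described above and in 2 more lists. Of 26 NF-kB pathway genes, 4 were lower and none was higher (edgeR, with 1 at an unadjusted p under 0.05, 0 by DESeq2 and 1 by limma-voom). Of 26 proteasome genes, 5 were higher and 2 lower, none in both organs (3 higher without those libraries, or without any 1 of GB-pos 1, GB-neg 3, SI-pos 2, SI-pos 3 and the SI-neg libraries). Of 8 mitochondrially encoded genes tested, 5 were lower, 1 of them in both organs (3 without any 1 GB-pos library, SI-pos 1, SI-pos 3 or SI-neg 2). Of 19 Wnt-dependent stem cell genes, 9 were lower (5 without those libraries) and 4 higher, and of 23 apoptosis regulators, 9 were lower and 5 higher; the lower count was 5 without those libraries and 4 without any 1 of GB-pos 1, GB-neg 1 and SI-pos 1. Among the last, Bid, which carries the death receptor signal to mitochondria, rose alike by 1.79 ± 0.31 (adjusted p = 0.000547) and shares exon sequence with Bcl2l13, while Bok, a BAX relative, fell by 3.63 ± 0.70 and met the rule for alike change in 9 of the 21 refitted alternatives.

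Per kilobase of exon, the highest of the genes changed alike upward in IL-25+ cells included Sh2d6, Epcam, Atp2a3, Sh2d7 and Trpm5. Sh2d6 averaged 3869.6 CPM per kilobase in gallbladder and 11619 in small intestine, Epcam 718 CPM per kilobase in gallbladder and 1608 in small intestine and Trpm5 712 CPM per kilobase in gallbladder and 800.1 in small intestine. The octamer ATGCAAAT, known to bind POU-domain factors, was in 2.01% of 546 promoters of genes changed alike upward, 0.431% of 464 downward and 1.45% of all 11625. The AP-1 element TGAGTCA was in 4.58% of promoters of genes changed alike upward, 6.25% downward and 3.84% of all.

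The other 8 marker lists, for neutrophils, erythroid cells, stroma, endothelium, smooth muscle, enteric neurons and glia, hepatocytes and pancreatic acini, held 12 tested members, of which 2 were lower in the averaged comparison, the transthyretin gene Ttr and the glial gene S100b. The hepatocyte list summed to 25.8 to 47.3 CPM in GB-pos, against 156 to 471 CPM in GB-neg, with Serpina1a at 0 counts in both. The neuron and glia list summed to 7.94 to 24.4 CPM in GB-pos, against 32.1 to 36.5 CPM in GB-neg.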
